A study of Mus musculus with 6 samples.

Results

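The factors described here build the large (60S) subunit of the ribosome. The list holds 45 genes, and 43 of them were measured in whole mouse brain on the 6 arrays of this study, among 19938 genes that a probeset named alone. Of the other 2, Ppan, a Brix-family nucleolar factor, lay on a probeset shared with another gene, and Noc2l, a partner of Noc3l, was not analysed here. Members were chosen by gene symbol, from a list proposed with the ethanol results of these data in view. Where a gene had several probesets the one with the largest 6-array mean was read, and the choice of probeset used no other measured value. All 43 passed the filter that removed the dimmest 25% of genes, which left 14953 tested genes.

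Ribosome assembly starts in the nucleolus, where RNA polymerase I transcribes the ribosomal RNA precursor and early factors fold, cut and modify it. Pre-60S particles then pass into the nucleoplasm, where AAA-type ATPases pull factors off and the internal transcribed spacer called ITS2 is cut away. Export adaptors take the particle to the cytoplasm, where GTPases and ATPases release the last factors. The genes of this pathway are known to be expressed most strongly in growing and dividing cells. Under these roles the list was divided into 31 nucleolar factors, 10 nucleoplasmic factors and 4 late factors, of which 29, 10 and 4 were measured.

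The animals were male C57BL/6J mice, an inbred strain, aged 7 days. One group received ethanol under the skin as a 20% solution in saline, in 2 doses of 2.5 g/kg spaced by 2 h, and the other received saline alone. Brains were taken 4 h after the first injection, the mother being away from the cage during treatment in both groups. Each array held pooled RNA of 3 males from different litters, so that 2 ethanol arrays (numbers 2 and 4) and 4 saline arrays (numbers 1, 3, 5 and 6) stand for 18 mice, and no array shows the spread between single pups. Each ethanol pup had a saline-treated littermate in the study. In whole-brain RNA, fewer cells of a type and less RNA per cell cannot be told apart.

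Levels are log2 intensities, and differences are log2 ethanol minus saline, with the standard error (SE) of a limma fit over 2 ethanol and 4 saline arrays. With so few arrays the precision of every value is limited. The median of all tested genes lay between 8.29 and 8.38 on the 6 arrays, and its lowest value was on saline array 3. That array also stood apart on the first principal component, at 13.5, with the ethanol arrays at the other end at -6.61 and -7.49 and the other saline arrays between -2.13 and 2.95. As a guide to background, 95% of 1194 olfactory and vomeronasal receptor genes had means up to 6.21. Neuronal markers (7 of 7 tested, among them Snap25 and Tubb3) had mean levels of 12.2 to 12.4 on every array. Across all tested genes, 12 passed the limma test (adjusted p under 0.05), 9 higher and 3 lower with ethanol, or 0.0803% of genes (0.0602% higher and 0.0201% lower), and with arrays centred on their medians 13 were higher and 2 lower.

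The promoters of some of these genes carry short elements known from growth-related genes, and the windows below show them upstream of the start for members on which the results turn. Promoter windows from RefSeq (GRCm38.p6), reaching 250 bases before the start and 50 after it, matched 39 of the 45 genes. Capitals mark the searched letters: CCGGAAG, the core bound by ETS factors (CTTCCGG on the other strand), or CACGTG, the E-box read by MYC and related factors. All windows run 5′ to 3′ on the gene's own strand and stop at the annotated start.
Urb2, ETS core, chr8:124021464-124021496, plus strand: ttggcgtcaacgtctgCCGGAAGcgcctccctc
Ddx55, ETS core, chr5:124552837-124552863, plus strand: tcgggcgacaaaccaaCCGGAAGcgga
Surf6, ETS core, chr2:26902908-26902947, minus strand: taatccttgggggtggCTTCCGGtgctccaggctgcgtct
Nop2, ETS core, chr6:125131829-125131868, plus strand: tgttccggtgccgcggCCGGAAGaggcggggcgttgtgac
Nop2, E-box, chr6:125131807-125131845, plus strand: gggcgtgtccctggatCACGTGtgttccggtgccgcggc
Nmd3, E-box, chr3:69721925-69721963, plus strand: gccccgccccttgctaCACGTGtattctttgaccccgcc
Lsg1, ETS core, chr16:30587623-30587662, minus strand: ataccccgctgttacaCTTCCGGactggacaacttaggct
Rsl24d1, ETS core, chr9:73113410-73113449, plus strand: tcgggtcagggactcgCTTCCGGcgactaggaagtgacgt
The ETS core was present, on either strand, in the windows of 20 of 39 members, or 51.3%, against 16.8% of 11775 tested genes with a window and 8.86% of all 32851 windows. The E-box was present in 8 of 39, or 20.5%, against 11.0% of tested genes and 7.15% of all windows. These shares are a description. Of the other elements searched on both strands, TCTCGCGA was in 2 of 39 members, or 5.13%, against 2.10% of tested genes and 0.995% of all windows. CATTTCCGG, whose last letters overlap the ETS core, was also in 2, against 0.552% of tested genes and 0.317% of all windows. The 18 tested members with the ETS core had a median log2 difference of -0.07 between ethanol and saline, and the 19 without it one of -0.10. A match says only that the letters stand in the window.

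With ethanol, 13 nucleolar factors stood at 78.9% to 90.1% of their saline level with an unadjusted limma p under 0.05, and the largest differences belonged to Ddx55, Urb2, Surf6, Noc3l and Urb1. No member passed the limma test over all genes, where 0.0803% of tested genes did. Of the 43 members, 37 had a log2 difference below 0, where 58.6% of all tested genes did. Both ethanol arrays lay below all 4 saline arrays for 15 members, or 34.9%, where 14.9% of tested genes did, and for no member did both lie above, where 7.68% of tested genes did. At an unadjusted limma p under 0.05, 15 members were lower and 1, Nop16, was higher, where 8.44% of tested genes were lower and 3.85% higher. The median log2 difference was -0.10 over members and -0.02 over all tested genes. These counts describe a list that was proposed with the ethanol results of these data in view, and they carry no test of the list.

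**Figure D1:**
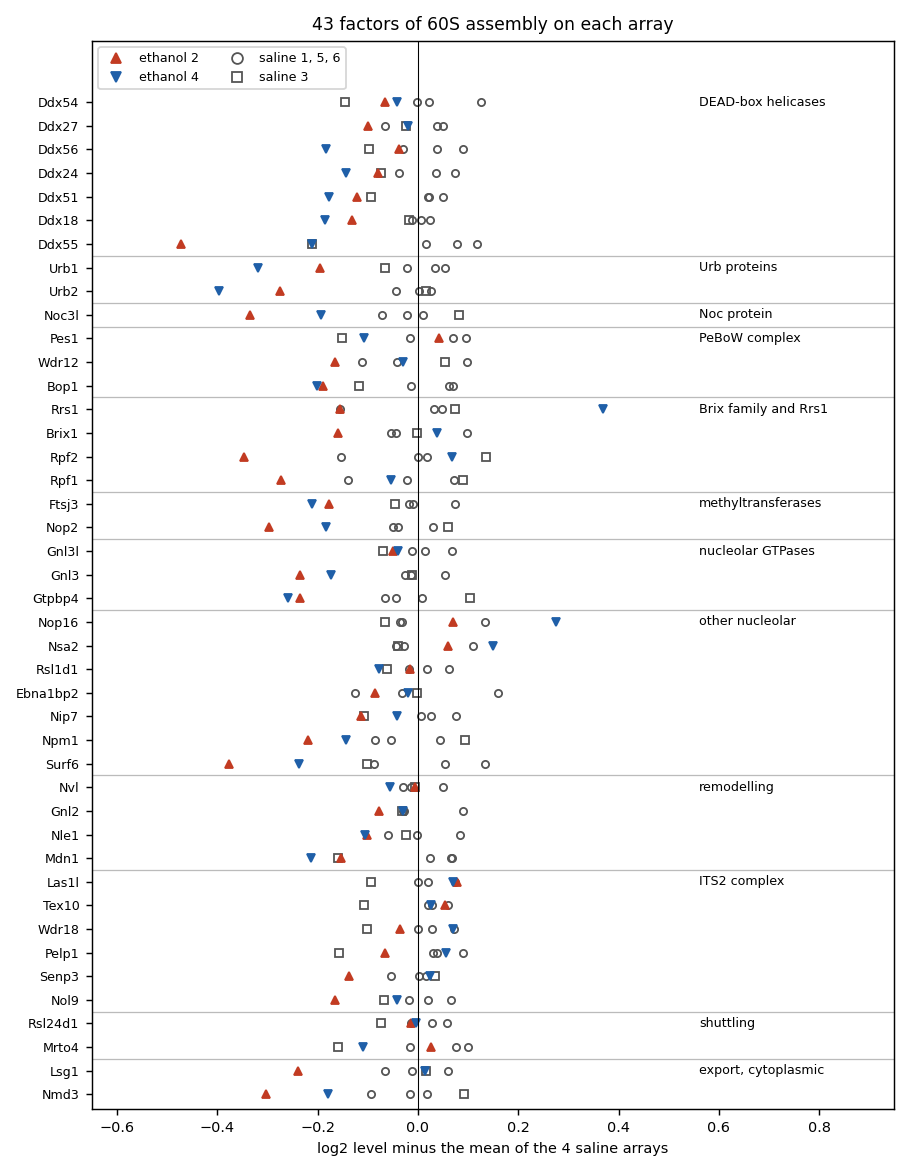
Level of each of the 43 measured factors on each array, as log2 level minus the mean of the 4 saline arrays (x axis), with factors grouped by role (y axis) and 1 symbol per array. Triangles are the 2 ethanol arrays and open symbols the saline arrays. Urb2 has both triangles well to the left of its saline symbols, and Nop16 and Nsa2 have theirs to the right of 0.

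**Figure D2:**
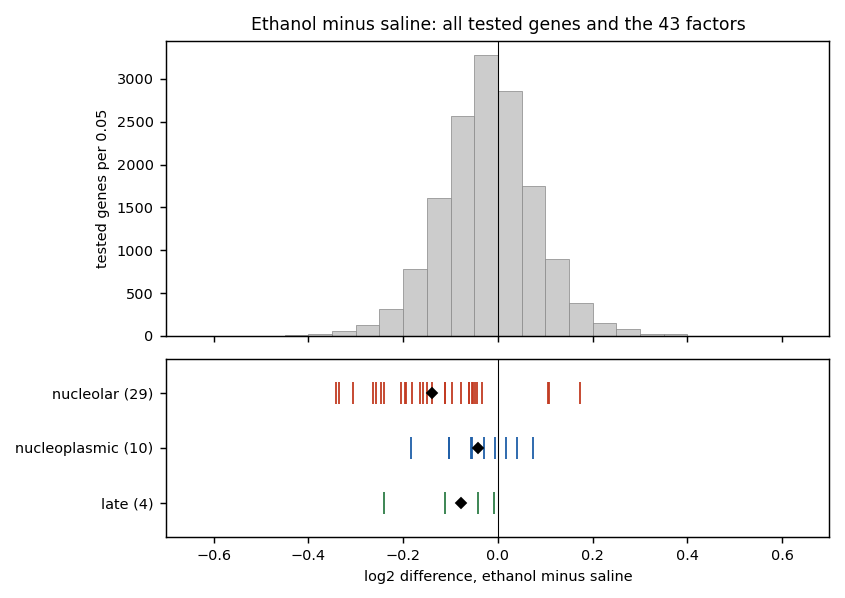
Number of tested genes by log2 difference, ethanol minus saline, in bins of 0.05 (upper panel), and the 43 factors by stage as ticks with their median as a diamond (lower panel). The medians are -0.14 for nucleolar, -0.04 for nucleoplasmic and -0.08 for late factors.

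The Urb proteins bind the earliest pre-60S particles. Urb2 stood at 9.33 and 9.21 on ethanol arrays 2 and 4 and at 9.63, 9.62, 9.56 and 9.61 on saline arrays 1, 3, 5 and 6. The groups did not overlap, and the saline arrays spanned a narrow range. Its log2 difference was -0.34 ± 0.06 (SE), which puts the ethanol level at 79.2% of saline, with a 95% interval of -0.47 to -0.20 (limma adjusted p = 0.0630). Urb2 passed the limma test with array weights (adjusted p = 0.0450) and with the dimmest 50% of genes left out (adjusted p = 0.0378), and over all alternatives with 6 arrays its adjusted p ranged from 0.0378 to 0.0931. Without ethanol array 4 its limma adjusted p was 0.456. Urb1, the scaffold of the same early complex, stood at 7.51 and 7.38 with ethanol and at 7.74, 7.64, 7.68 and 7.76 with saline. Both ethanol values of Urb1 were below every saline value, and the log2 difference was -0.26 ± 0.06 (limma adjusted p = 0.162).

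Among the DEAD-box helicases, which unwind RNA in the particle, all 7 had log2 differences below 0, and the groups did not overlap for Ddx18, Ddx24 and Ddx51, where 58.6% of tested genes were below 0 and 14.9% had both ethanol arrays below all saline arrays. Ddx55 had the lowest difference of the 43 members, at 78.9% of the saline level. It stood at 6.56 and 6.82 with ethanol and at 7.11, 6.82, 7.15 and 7.05 with saline. Ethanol array 4 and saline array 3 were level for this gene, so that the groups met there. The log2 difference was -0.34 ± 0.10 (limma adjusted p = 0.193), and it ranged from -0.47 to -0.21 when 1 array was left out. Ddx18 stood at 8.61 and 8.56 with ethanol and between 8.72 and 8.77 with saline, and another Ddx18 probeset gave a log2 difference of -0.20 where the first gave -0.16. On that other probeset the groups overlapped, with ethanol array 4 at 7.99 and saline array 3 at 7.98. Ddx51, which acts with the Urb proteins, had a difference of -0.15 ± 0.06, with ethanol values of 6.15 and 6.09 that lay within the background range. The other helicases Ddx24, Ddx56, Ddx27 and Ddx54 had differences of -0.11, -0.11, -0.06 and -0.05, and another Ddx54 probeset gave 0.02.

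Noc3l, a scaffold factor of early pre-60S particles, was low on both ethanol arrays. Its levels were 8.21 and 8.35 with ethanol and 8.53, 8.63, 8.48 and 8.56 with saline. The log2 difference was -0.26 ± 0.07 (limma adjusted p = 0.164), with the ethanol level at 83.3% of saline. In the PeBoW complex, which is needed to process the precursor of the large rRNAs, the members parted. Bop1 stood at 8.98 and 8.97 with ethanol and at 9.23, 9.05, 9.24 and 9.16 with saline, without overlap, and its difference was -0.20 ± 0.07 (limma adjusted p = 0.268). Its partners Wdr12 and Pes1 had differences of -0.10 ± 0.07 and -0.03 ± 0.08 and overlapping groups, and a dimmer Wdr12 probeset gave 0.02. Whether either probeset of Ddx18 or Wdr12 reads a near-identical copy of the gene elsewhere in the genome was not tested.

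The rRNA methyltransferases Nop2 and Ftsj3 were both lower in each ethanol pool than in any saline pool. Nop2 stood at 9.37 and 9.48 with ethanol and at 9.62, 9.73, 9.70 and 9.63 with saline, a log2 difference of -0.24 ± 0.06 (limma adjusted p = 0.168). Ftsj3 stood at 7.53 and 7.50 with ethanol and between 7.66 and 7.78 with saline, with a difference of -0.19 ± 0.06 (limma adjusted p = 0.232). For both enzymes the difference between the group means was larger than the range of the saline arrays.

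Of the nucleolar GTPases, Gtpbp4 and Gnl3 had groups that did not overlap. Gtpbp4, known in yeast as Nog1, stood at 9.39 and 9.37 with ethanol and at 9.64, 9.73, 9.58 and 9.56 with saline, with a log2 difference of -0.25 ± 0.06 (limma adjusted p = 0.165). Gnl3, or nucleostemin, a protein enriched in stem and progenitor cells, stood at 8.44 and 8.50 with ethanol and at 8.73, 8.66, 8.65 and 8.66 with saline. Its difference was -0.20 ± 0.06 (limma adjusted p = 0.199), at 86.8% of the saline level. The paralog Gnl3l had a difference of -0.04 ± 0.06, with an interval of -0.18 to 0.09 and overlapping groups.

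The Brix family and its partner Rrs1 varied more between the ethanol arrays than between the groups. Rpf1, which had the largest difference of this role, stood at 10.4 and 10.6 with ethanol and at 10.5, 10.7, 10.7 and 10.6 with saline. Only ethanol array 2 lay below all saline values of Rpf1, and the log2 difference was -0.16 ± 0.08 (limma adjusted p = 0.443). Rpf2 and Rrs1, which bring the 5S RNA and its proteins into the particle, differed between the ethanol arrays by more than any saline pair did. Rpf2 stood at 7.84 and 8.25 and Rrs1 at 7.43 and 7.96 on ethanol arrays 2 and 4, where the saline arrays spanned 8.03 to 8.32 and 7.43 to 7.66. Brix1 had a difference of -0.06 ± 0.07.

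Among the remaining nucleolar factors Surf6 and Npm1 were lower and Nop16 and Nsa2 higher on the ethanol arrays. Surf6, an early rRNA-binding factor, stood at 6.69 and 6.83 with ethanol and at 7.12, 6.96, 6.98 and 7.20 with saline, with a log2 difference of -0.31 ± 0.08 (limma adjusted p = 0.164) and no overlap. Npm1, the abundant nucleolar phosphoprotein nucleophosmin, stood at 11.2 and 11.3 with ethanol and at 11.4, 11.5, 11.4 and 11.5 with saline, without overlap, and its difference was -0.18 ± 0.07 (limma adjusted p = 0.308). Nop16 stood at 9.67 and 9.87 with ethanol and at 9.56, 9.53, 9.73 and 9.56 with saline. Saline array 5 lay above ethanol array 2, and the difference was 0.17 ± 0.08 (limma adjusted p = 0.390). Nsa2, whose product enters with the late nucleolar particle, had 4 probesets with differences of 0.11, 0.04, 0.03 and 0.12, all above 0 and none tested apart from the first (limma adjusted p = 0.553). On the first probeset the groups overlapped, with saline array 5 at 11.17 and ethanol array 2 at 11.12. The probeset with 0.12 had both ethanol arrays, at 11.12 and 11.20, above all saline arrays, at 10.99 to 11.09. On the probesets with 0.04 and 0.03 the groups overlapped. Whether any of the 4 reads a near-identical copy of Nsa2 elsewhere in the genome was not tested. Nip7, Ebna1bp2 and Rsl1d1 had differences of -0.08, -0.05 and -0.05.

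Nucleoplasmic factors showed smaller differences, with a median of -0.04 over 10 genes, 7 of them below 0. Mdn1, the giant AAA ATPase that strips factors from the particle, stood at 8.0 and 7.94 with ethanol and at 8.22, 7.99, 8.18 and 8.22 with saline. Saline array 3 lay among the ethanol values of Mdn1, and the log2 difference of -0.18 ± 0.07 (limma adjusted p = 0.342) became -0.24 without that array. Nle1, the substrate that Mdn1 pulls on, had groups that did not overlap, at 6.27 and 6.26 against 6.31 to 6.45, close to the background range, with a difference of -0.10 ± 0.06. The GTPase Gnl2 and the AAA ATPase Nvl had differences of -0.05 and -0.03.

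The complex that cuts and trims ITS2 had 3 members below 0 and 3 above, with a median log2 difference of 0.01. Nol9, the kinase that prepares the cut ends, had the largest, -0.10 ± 0.06, from levels of 10.2 and 10.4 with ethanol and of 10.5, 10.3, 10.4 and 10.4 with saline, which overlapped (limma adjusted p = 0.549). The endonuclease Las1l had 0.07 ± 0.06, and the scaffold members Tex10, Wdr18 and Pelp1 had 0.04, 0.02 and -0.01. The SUMO protease Senp3 had -0.06 ± 0.06. The interval for Pelp1 ran from -0.17 to 0.16, so a difference the size of that of Ftsj3 or larger lies outside it, while smaller ones were not resolved.

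The late factors differed among themselves. Nmd3, the adaptor that ties the particle to the exportin Xpo1, stood at 9.88 and 10.0 with ethanol and at 10.2, 10.3, 10.2 and 10.1 with saline. Both ethanol values lay below all saline values, and the log2 difference was -0.24 ± 0.07, or 84.6% of the saline level (limma adjusted p = 0.193). Lsg1, the cytoplasmic GTPase that releases Nmd3, stood at 8.35 and 8.61 with ethanol and at 8.53, 8.61, 8.58 and 8.65 with saline. Only ethanol array 2 was low for Lsg1, and its difference of -0.11 ± 0.08 (limma adjusted p = 0.576) became 0.01 without that array. Rsl24d1, a placeholder for a ribosomal protein that joins in the nucleolus and leaves in the cytoplasm, stood at 9.55 and 9.56 with ethanol and at 9.59, 9.49, 9.55 and 9.62 with saline. Its difference was -0.01 ± 0.06, with an interval of -0.14 to 0.12, and the sign turned with arrays centred on their medians. Mrto4, the placeholder for the stalk protein, stood at 7.37 and 7.23 with ethanol and at 7.42, 7.18, 7.44 and 7.32 with saline, a difference of -0.04 ± 0.08 that became 0.03 without ethanol array 4.

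By stage, the median log2 difference was -0.14 over 29 nucleolar, -0.04 over 10 nucleoplasmic and -0.08 over 4 late factors. Groups did not overlap, with ethanol lower, for 13 nucleolar, 1 nucleoplasmic and 1 late factor, or 44.8%, 10% and 25% of those measured, where 14.9% of tested genes did so. The difference between stages was not tested, and the late stage rests on 4 genes, of which Nmd3 alone had groups apart. On ethanol arrays 2 and 4 the nucleolar factors had a median deviation from their saline means of -0.16 and -0.14, the nucleoplasmic factors of -0.07 and 0.00, and the late factors of -0.13 and -0.06. Saline array 3 lay at -0.04, -0.08 and -0.03 for the 3 stages, and the other saline arrays lay between -0.01 and 0.03. As mean levels, ethanol array 2 lay below array 4 in every stage, at 8.75 and 8.82 for nucleolar, 8.91 and 8.95 for nucleoplasmic and 8.79 and 8.85 for late factors. The saline arrays spanned 8.89 to 8.93, 8.90 to 9.01 and 8.89 to 8.93.

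**Figure D3:**
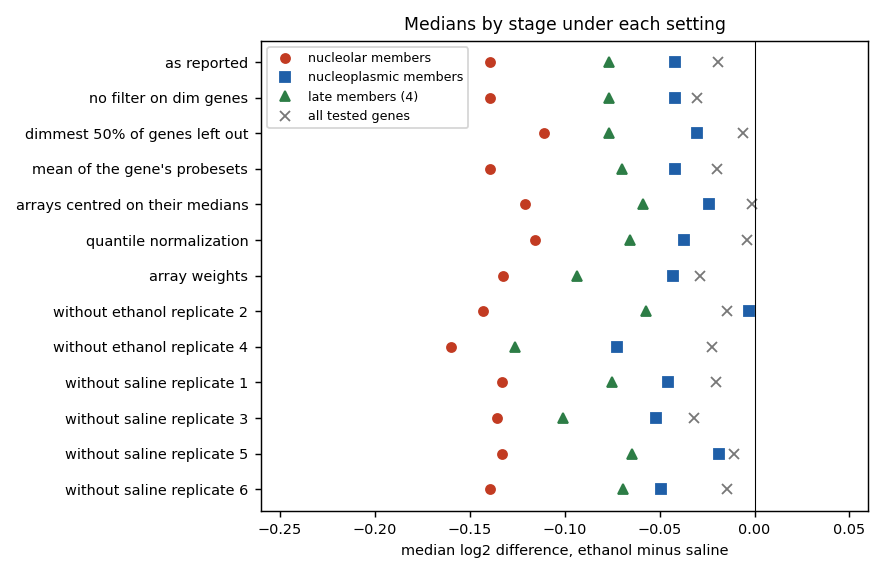
Median log2 difference, ethanol minus saline (x axis), of nucleolar, nucleoplasmic and late factors and of all tested genes under each processing setting (y axis). The nucleolar median stays between -0.16 and -0.11, and the nucleoplasmic median comes to 0.00 without ethanol array 2.

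The arrays were also counted by how often each was the lowest or highest of the 6. Ethanol arrays 2 and 4 were lowest for 18 and 13 of the 43 members and highest for 1 and 3. Saline array 3 was lowest for 10 members and highest for 8. Saline arrays 1, 5 and 6 were lowest for 2, 0 and 0 and highest for 9, 11 and 11. The same counts were not made over all tested genes, of which 58.6% had a log2 difference below 0. How far these counts are particular to the members was therefore not tested. Members with saline array 3 highest include Noc3l, Nop2, Gtpbp4, Npm1 and Nmd3, and without that array 17 members were lower at an unadjusted limma p under 0.05, where 10.5% of tested genes were, and 0 were higher. Without ethanol array 2 the count was 10, where 6.79% of tested genes were lower. No member passed the adjusted threshold in limma when any 1 array was left out.

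Genes of the pathway outside the list were counted in the same way. Of 22 measured nucleolar pre-60S genes among 23 named, 20 had a log2 difference below 0, the median was -0.12, and 7 were lower and 0 higher at an unadjusted p under 0.05 in limma. Over all tested genes 58.6% were below 0, and 8.44% were lower and 3.85% higher at that p. Wdr74, which works with Nvl, stood at 8.08 and 8.07 with ethanol and between 8.27 and 8.38 with saline, a difference of -0.24 ± 0.06 (limma adjusted p = 0.151). Mak16, an early rRNA-binding factor, had -0.26 ± 0.08, and the helicase Ddx31 had -0.21 ± 0.07. Of 13 measured late genes among 14 named, 11 were below 0, and the median was -0.06. At an unadjusted p under 0.05 in limma, 5 of them were lower and 1 higher. Both ethanol arrays lay below all saline arrays for 10 of the 22 nucleolar genes (45.5%) and 6 of the 13 late genes (46.2%). Over all tested genes 14.9% did so, and in the list 44.8% of nucleolar and 25% of late members did. In this count the other genes did not show the list's gap between nucleolar and late factors. The ATPases Spata5l1 (Afg2b) and Spata5 (Afg2a) had differences of -0.30 ± 0.08 and -0.22 ± 0.07. Dusp12, known in yeast for the release of Mrt4, had -0.23 ± 0.07. Xpo1, the exportin of the particle and of many other cargoes, stood higher on both ethanol arrays, at 10.94 and 10.76 against 10.58 to 10.63 with saline, a difference of 0.23 ± 0.07 (limma adjusted p = 0.193). Eif6, which keeps the new subunit from joining the small one, and Sbds and Efl1, which release it, had differences of -0.02, 0.08 and -0.12. None of these genes passed the limma test over all genes, with the smallest adjusted p at 0.151.

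**Figure D4:**
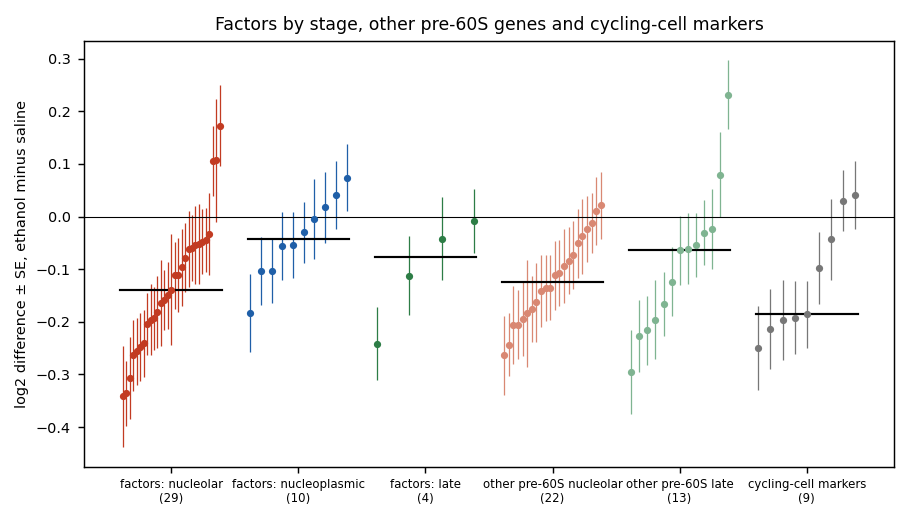
Log2 difference, ethanol minus saline, with its standard error (y axis) for each measured factor by stage, for other pre-60S genes and for markers of cycling cells, sorted within each group (x axis), with the median as a bar. Medians are -0.14, -0.04 and -0.08 for the factors by stage, -0.12 and -0.06 for the other pre-60S genes and -0.19 for the cycling markers.

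Some markers of cycling cells were also lower on the ethanol arrays. Of 10 listed, 9 were tested, and 5 (Aurka, Cdk1, Pcna, Mcm2 and Bub1) were lower at an unadjusted limma p under 0.05, with groups that did not overlap. Over all tested genes 8.44% were lower at that p, and 14.9% had both ethanol arrays below all saline arrays. The mean level of the cycling list was 8.72 to 8.79 with ethanol and 8.86 to 8.92 with saline. Its median difference was -0.19, while Mki67, Top2a, Ccna2 and Mcm5 had -0.10, 0.04, -0.04 and 0.03. Of 7 cerebellar granule precursor markers, 6 were below 0. At an unadjusted limma p under 0.05, 1 (Barhl2, at -0.27) was lower and 1 (Barhl1, at 0.17) higher, each with groups that did not overlap. Pax6, at -0.14, also had both ethanol arrays below all saline arrays, so that 2 of 7 markers (28.6%) did. Over all tested genes 58.6% were below 0, and 8.44% were lower and 3.85% higher at that p. Both ethanol arrays lay below all saline arrays for 14.9% of them and above for 7.68%. The mean level of the granule precursor list was 8.28 to 8.38 with ethanol and 8.36 to 8.46 with saline. Pituitary markers had a mean level of 6.01 to 6.83 with ethanol and 7.02 to 7.27 with saline over 4 tested genes of 7 listed, with Prl, Pomc and Tshb dim on all arrays. The log2 differences were -1.52 for Gh and -1.20 for Cga, larger than that of any assembly factor, and -0.17 for Fshb and -0.16 for Ghrhr. On ethanol arrays 2 and 4 Gh stood at 7.65 and 5.72 and Cga at 7.19 and 6.06. Their values on ethanol array 4 lay below the background guide of 6.21, as did Fshb on every array, at 5.56 to 5.90. This limits what the size of these 3 differences can show. The part of these markers in the differences of the assembly factors was not tested. Mean levels overlapped between the groups for markers of neurons, astrocytes, oligodendrocytes, microglia, endothelium and red cells. Within these lists, 1 of 7 neuronal markers (Snap25, at -0.19) was lower at an unadjusted limma p under 0.05. So was 1 of 5 tested oligodendrocyte markers (Olig1, at -0.16), where 8.44% of all tested genes were. Red-cell markers had 2 tested genes of 6 listed, at -0.23 and -0.18. Choroid plexus markers lay at 8.89 to 8.93 with ethanol and at 8.94 to 9.05 with saline. Only Sostdc1 of these 6, at -0.32, had groups that did not overlap, and the rest ran from -0.09 to 0.06.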

How the data were processed

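Whole-brain RNA pools were read on an Affymetrix whole-transcript array. The authors' deposited table was taken to hold log2 intensities, since its values run from 4.10 to 14.9 and no source used here names the log base. The submitters' processing notes name Partek 6.6. No source used here gives the background correction or normalization. The values entered the fit unchanged. Of 35556 probesets, 21789 had 1 gene symbol, 1621 several and 12146 none. For 21698 of the probesets with 1 symbol the gene was found in RefSeq, and its symbol there was used. All genes were fitted together with limma 3.58.1 in R 4.3.3 (treatment as the only term, so that litters shared between the groups were not modelled, two-sided, Benjamini-Hochberg adjustment over 14953 genes, threshold 0.05). The code was tested on simulated data. The p-values reflect only how pools differ. The members, stages and lists were chosen with earlier results of these data known. Values per array were given for the 14 members with the smallest p, the late factors and the largest difference of each role. From each of the other pathway lists the 3 genes with the smallest p were named. Other members are named as accounts of the list, and Ddx51, Nop16, Nsa2, Rpf2, Rrs1, Nle1, Spata5, Eif6, Sbds and Efl1 were singled out after their values were seen. Of the 2 newer symbols Afg2a and Afg2b, values came from the former names Spata5 and Spata5l1. A further promoter element was searched, matched no member and is not shown. Alternatives were 2 other filters on dim genes, probeset means, median centring, quantile normalization, array weights and leaving out each array.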

Additional observations from a re-analysis of the deposited data

Results flagged for a closer look

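Among the 4 saline arrays, 3 of the 43 members had 1 array far from the others. The gap was above Dixon's critical share of the range, which chance exceeds about 1 time in 20. A count of 3 in 43 is near that rate, and the rule was not applied to the other tested genes. For each of the 3 members the array was saline array 5, standing high. Gnl2 was 10.2 there and 10.0 on the other saline arrays (10.156 against 10.034 to 10.038). Nop16 was 9.73 against 9.53 to 9.56, and Nsa2 was 11.2 there (11.166 against 11.012 to 11.028). Nop16 and Nsa2 are the members named above with higher values on the ethanol arrays. Saline array 5 lay above ethanol array 2 for both, in Nsa2 on the first probeset but not on the one with 0.12.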

How the results depend on the processing

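No paired analysis was possible because the labels do not say which pools share litters and the groups share no array number, so the littermate matching was not modelled. The differences of the 19 members given per array kept their sign and their side of the threshold in 219 cases over the alternatives. Urb2 passed in 2 settings, and 5 values turned sign: Rsl24d1 to 0.0039 with probeset means, 0.0091 with centred arrays and 0.010 without saline array 6, Lsg1 to 0.014 without ethanol array 2 and Mrto4 to 0.026 without ethanol array 4. The cause was not tested. Genes past the threshold numbered 52 (22 higher, 30 lower; 1 member) with the dimmest 50% left out, where fewer genes are tested, 23 (17 higher, 6 lower) with quantile normalization, and 56 (21 higher, 35 lower; 1 member and, at unadjusted p, 0 higher members) with array weights. Leaving out 1 array gave 4 to 16 genes (3 to 12 higher, 1 to 5 lower), 0 to 2 members higher and 10 to 17 lower at unadjusted p, and 15 to 27 members below all saline arrays. The 27 came without ethanol array 4, where 1 ethanol array is compared and 29.2% of tested genes lie below. Median differences ranged from -0.132 to -0.055 over members, -0.160 to -0.133 for nucleolar, -0.0726 to -0.0030 for nucleoplasmic and -0.126 to -0.0569 for late factors, and differences from -0.238 to 0.014 for Lsg1, -0.110 to 0.026 for Mrto4 and -0.0333 to 0.010 for Rsl24d1. The lone ethanol array in such fits is assumed to vary like the saline arrays. Ddx51 and Nle1, at means of 6.22 and 6.34, lie close to the background guide of 6.21, which limits what their values can show.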
